A study of Homo sapiens with 6 samples.

Results

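The expression of 10 genes of the smooth-muscle-type contractile apparatus was followed through 6 arrays of Ewing tumor cells. The 10 genes are ACTA2, TAGLN, CNN1, CNN2, CSRP1, CSRP2, MYL9, TPM1, TPM2 and CALD1, out of 18417 genes compared. Each was read by 1 probe set annotated to that gene symbol alone. The set was put together with measured values in view: ACTA2 was chosen for being lower in every array with siRNA against STEAP1, CSRP1 for its difference between the cell lines and CSRP2 for its difference in response. The values of the 10 genes in those contrasts are therefore given as a description, with standard errors (SE) and no test.

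The study used A673 and SK-N-MC, both established Ewing tumor cell lines. In each line 1 array came from cells given a control siRNA, 1 from cells given siRNA 2 against STEAP1 (siSTEAP1_2) and 1 from cells given siRNA 3 (siSTEAP1_3). STEAP1 encodes a membrane protein of a metalloreductase family. All 6 samples received siRNA at 5 nM for 48 h and were taken at 80% confluency, and 200 ng of total RNA entered each labelling. The labels do not name the control siRNA, the A673 control carries the number 2, and whether both lines had the same control siRNA is not stated. Nor do they say if the cells of 1 line were grown as separate cultures, and the p-values then reflect spread among these arrays, which may be technical. For differences within a line, and between the responses of the lines, only the siRNA arrays give that spread. Each control array stands alone there, so those SE and p-values hold no variation among control arrays. Both siRNAs stand as replicates of silencing, each line has a single control array, and precision is limited by having 6 arrays. Levels are log2 of the deposited intensity.

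Smooth muscle cells contract when myosin pulls on thin filaments of actin. Tropomyosin lies along these filaments, and caldesmon and the calponins bind them and damp the myosin motor. Many of the genes are switched on through serum response factor (SRF), which binds a short element called the CArG box and works with the coactivators myocardin or MRTF. The assembly of actin into filaments releases MRTF to the nucleus. The same proteins in lower amounts form stress fibres in many cells that are not muscle, among them fibroblasts and tumor cells.

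Promoter windows are shown because SRF is a known regulator of many of these genes. RefSeq windows (GRCh38.p14) of 250 bases before an annotated start were at hand for 8 of the 10 genes, 16 windows in all. A CArG box was searched by letters, in full and with 1 other letter in its A/T core, and the box reads as a box on both strands. Matches are in capitals and each sequence runs 5′ to 3′ on the strand of the gene. The first 3 windows are those with a match, and TPM2 is shown as the other gene that was lower in all 4 siRNA arrays.
ACTA2 chr10:88952774-88953023, minus strand: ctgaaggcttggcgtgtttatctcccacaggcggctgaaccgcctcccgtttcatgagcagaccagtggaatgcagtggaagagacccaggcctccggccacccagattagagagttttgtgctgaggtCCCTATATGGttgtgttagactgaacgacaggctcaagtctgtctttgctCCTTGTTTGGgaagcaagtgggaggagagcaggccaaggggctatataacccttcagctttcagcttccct
CNN2 chr19:1026358-1026607, plus strand: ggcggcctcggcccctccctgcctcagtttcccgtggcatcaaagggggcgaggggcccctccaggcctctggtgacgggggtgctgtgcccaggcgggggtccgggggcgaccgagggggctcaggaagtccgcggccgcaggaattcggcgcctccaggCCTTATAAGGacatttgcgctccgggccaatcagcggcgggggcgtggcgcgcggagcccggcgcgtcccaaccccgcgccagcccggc
CALD1 chr7:134711249-134711498, plus strand: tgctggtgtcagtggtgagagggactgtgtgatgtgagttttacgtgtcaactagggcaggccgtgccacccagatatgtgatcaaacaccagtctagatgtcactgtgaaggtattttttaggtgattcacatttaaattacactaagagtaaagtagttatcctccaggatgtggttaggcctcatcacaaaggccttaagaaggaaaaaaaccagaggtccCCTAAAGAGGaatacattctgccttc
TPM2 chr9:35690057-35690306, minus strand: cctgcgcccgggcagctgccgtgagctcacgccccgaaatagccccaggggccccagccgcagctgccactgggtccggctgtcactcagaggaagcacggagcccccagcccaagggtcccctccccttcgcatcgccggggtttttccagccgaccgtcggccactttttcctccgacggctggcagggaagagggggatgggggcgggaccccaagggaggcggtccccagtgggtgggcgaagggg

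The ACTA2 window held CCCTATATGG at 121 bases and CCTTGTTTGG at 71 bases before the start, each with 1 other letter in the core. CNN2 held the only full box of the set, CCTTATAAGG at 89 bases before the start. CALD1 had CCTAAAGAGG at 26 bases before the start of 1 of its windows. Of all 35116 windows of this length, 1.16% held a full box and 7.04% a full box or one with 1 other letter. Of the 16 windows of the contractile genes, 1 held a full box and 3 held either kind. A match describes letters in a window and is not a measured site.

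The target itself was read first. STEAP1 read 7.15 in control, 4.17 under siRNA 2 and 4.73 under siRNA 3 in SK-N-MC, then 6.23, 4.53 and 4.59 in A673. The siRNA arrays thus held 12.7% and 18.7% of the control intensity for SK-N-MC and 30.8% and 32.1% for A673. All 4 siRNA arrays lay below both controls (log2 difference -2.18, SE 0.24 across lines), although limma's Benjamini-Hochberg adjusted p over all genes was 0.293. The 6 arrays had medians of 2.586 to 2.697, and correlated across genes at 0.986 to 0.993 within a line and 0.946 to 0.949 between lines.

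Several defining markers of smooth muscle were low in both lines. Of 21 other smooth muscle genes taken as a list, 20 were measured, and 11 of these lay below the array median in all 6 arrays. That median is over all probe sets, so many genes lie below it, and the share of all genes was not counted. Other genes of the list lay above it in all 6 arrays, among them DES (3.25 to 3.76), SYNM (3.31 to 3.98) and CNN3 (6.54 to 7.62). MYH11, the smooth muscle myosin heavy chain, stayed between 1.54 and 1.79, and MYOCD, which encodes myocardin, between 1.05 and 1.37. The calponin CNN1 was below the array median in all 6 arrays, and TAGLN, which encodes transgelin, was above it in only 3. The other 8 genes of the set were above it in all 6. With MYH11 and MYOCD this low, no smooth muscle identity is read from the set, and it is called the contractile genes from here on. Among fibroblast and pericyte markers, 8 of 17 were below the array median in all 6 arrays, as were 13 of 18 skeletal and cardiac muscle markers and 9 of 12 epithelial, endothelial, blood and glial markers. Of 15 Ewing tumor markers 1 was, and CD99, the surface marker of these tumors, lay between 9.40 and 10.25.

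**Figure D1:**
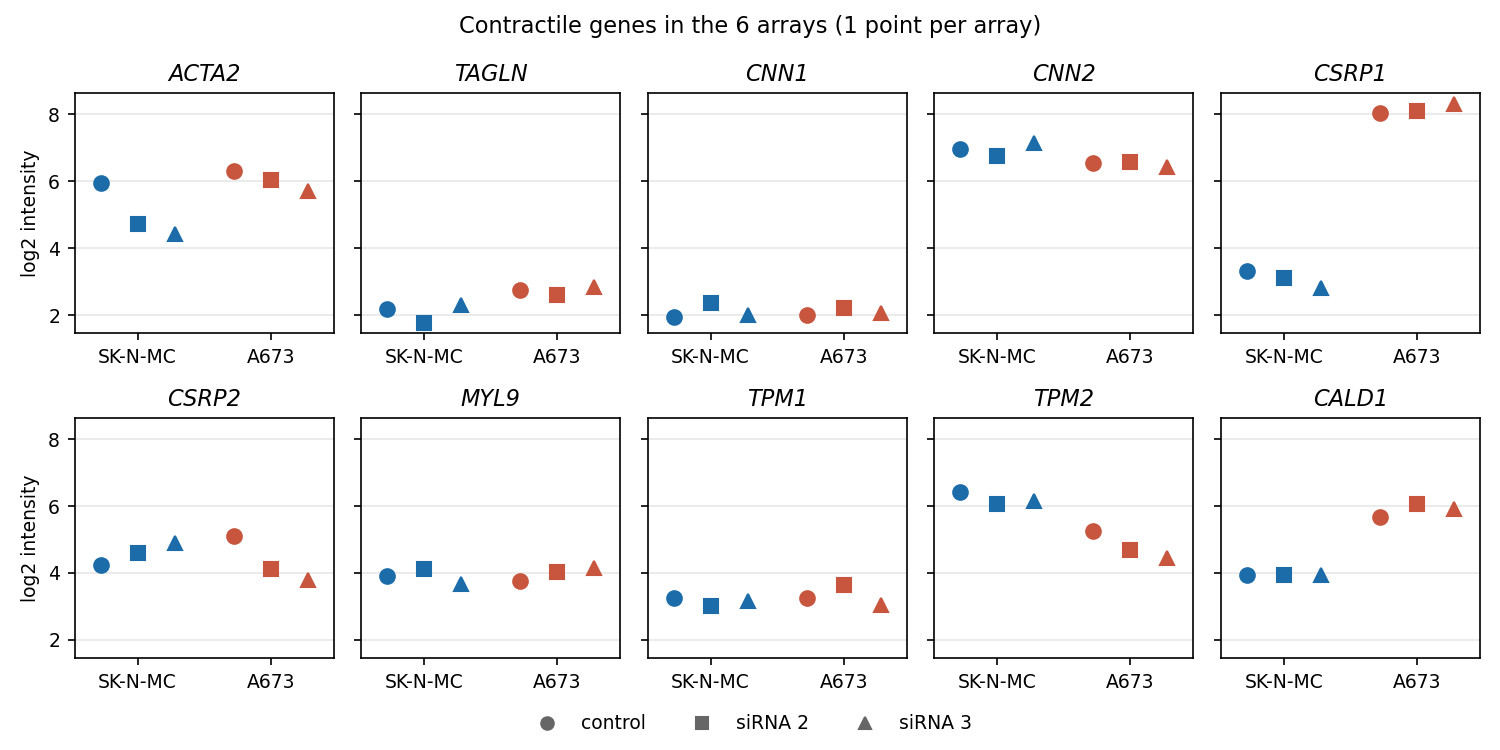
Log2 intensity of the 10 contractile genes in the 6 arrays, 1 point per array, with SK-N-MC in blue and A673 in red, circles for control, squares for siRNA 2 and triangles for siRNA 3. CSRP1 lies between 2.80 and 3.31 in SK-N-MC and between 8.03 and 8.30 in A673, and ACTA2 lies below its control in both siRNA arrays of each line.

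The actin isoform came first in the question of what followed the silencing of STEAP1. ACTA2 encodes smooth muscle alpha-actin, the thin filament actin of vascular smooth muscle and myofibroblasts. SK-N-MC gave 5.95 for the control, 4.73 for siRNA 2 and 4.44 for siRNA 3. A673 gave 6.31, 6.05 and 5.72 in the same order. Both siRNA arrays of each line lay below their control, at 42.8% and 35.2% of its intensity for SK-N-MC and 83.1% and 66.2% for A673. The difference was -1.36 (SE 0.21) in SK-N-MC and -0.43 (SE 0.21) in A673, or -0.90 (SE 0.22) across lines. The response in A673 was smaller by 0.93 (SE 0.30). ACTA2 was chosen for this pattern, and these differences carry no test. In these bulk samples, fewer cells with a transcript and less of it per cell cannot be told apart.

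Among the tropomyosins, TPM2, the beta isoform, was below its control in all 4 siRNA arrays, as ACTA2 was. Its levels in control, siRNA 2 and siRNA 3 were 6.43, 6.06 and 6.16 for SK-N-MC and 5.25, 4.70 and 4.46 for A673. The siRNA arrays stood at 77.4% and 83.2% of it for SK-N-MC and 68.4% and 58.1% for A673. Unlike ACTA2, the larger difference was in A673, at -0.67 (SE 0.18) against -0.32 (SE 0.18) in SK-N-MC, and the difference of the responses was -0.35 (SE 0.26). TPM1, the alpha isoform, was at 3.25, 3.02 and 3.16 in SK-N-MC and at 3.25, 3.65 and 3.03 in A673. Its siRNA arrays lay on both sides of the A673 control, and its difference across lines was -0.03 (SE 0.18).

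CSRP1 and CSRP2 encode LIM domain proteins that bind actin-filament proteins and, in the nucleus, SRF complexes. CSRP2 in SK-N-MC read 4.25 in control, 4.59 under siRNA 2 and 4.90 under siRNA 3. The A673 readings were 5.10, 4.11 and 3.80. The siRNA arrays were above the control in SK-N-MC, at 126.0% and 156.8% of it, and below it in A673, at 50.3% and 40.4%. The difference was 0.49 (SE 0.22) in SK-N-MC and -1.15 (SE 0.22) in A673, and the A673 response less the SK-N-MC response came to -1.64 (SE 0.31). Across lines the opposite responses left -0.33 (SE 0.32).

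CSRP1 went the other way round, with smaller differences. In SK-N-MC it was at 3.31, 3.10 and 2.80 in control, siRNA 2 and siRNA 3, and in A673 at 8.03, 8.11 and 8.30. The siRNA arrays were below the control in SK-N-MC (-0.36, SE 0.20) and above it in A673 (0.18, SE 0.20), with a difference of the responses of 0.53 (SE 0.28). The direction in each line was thus opposite to that of CSRP2, but the SK-N-MC intensities of CSRP1 were near the array median. CSRP2 was chosen for its difference in response and CSRP1 for its difference between the lines, so neither value carries a test.

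The filament-binding inhibitors showed smaller differences. CALD1, caldesmon, was at 3.93, 3.95 and 3.93 in SK-N-MC and at 5.68, 6.06 and 5.91 in A673, so that its siRNA arrays lay above the control by 0.38 and 0.23 in A673 and by at most 0.02 in SK-N-MC. CNN1, calponin 1, was at 1.94, 2.36 and 2.01 in SK-N-MC and at 1.99, 2.22 and 2.06 in A673. All 4 siRNA arrays of both genes were at or above the control, but CNN1 was dim in every array, and its difference across lines was 0.20 (SE 0.13), against 0.16 (SE 0.12) for CALD1. CNN2, a calponin found in many cell types, was at 6.97, 6.77 and 7.14 in SK-N-MC and at 6.56, 6.58 and 6.42 in A673. The siRNA arrays of CNN2 lay on both sides of the control in each line, with a difference of -0.03 (SE 0.14) across lines.

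TAGLN encodes transgelin, an actin-bundling relative of the calponins. It was at 2.18, 1.78 and 2.30 in SK-N-MC and at 2.76, 2.60 and 2.83 in A673, with siRNA 2 below and siRNA 3 above the control in both lines. MYL9, the regulatory myosin light chain whose phosphorylation starts contraction, was at 3.91, 4.13 and 3.68 in SK-N-MC and at 3.77, 4.04 and 4.14 in A673. In A673 both siRNA arrays of MYL9 were above the control (0.32, SE 0.22), and in SK-N-MC they lay on both sides of it. Across lines TAGLN differed by -0.09 (SE 0.16) and MYL9 by 0.16 (SE 0.16).

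**Figure D2:**
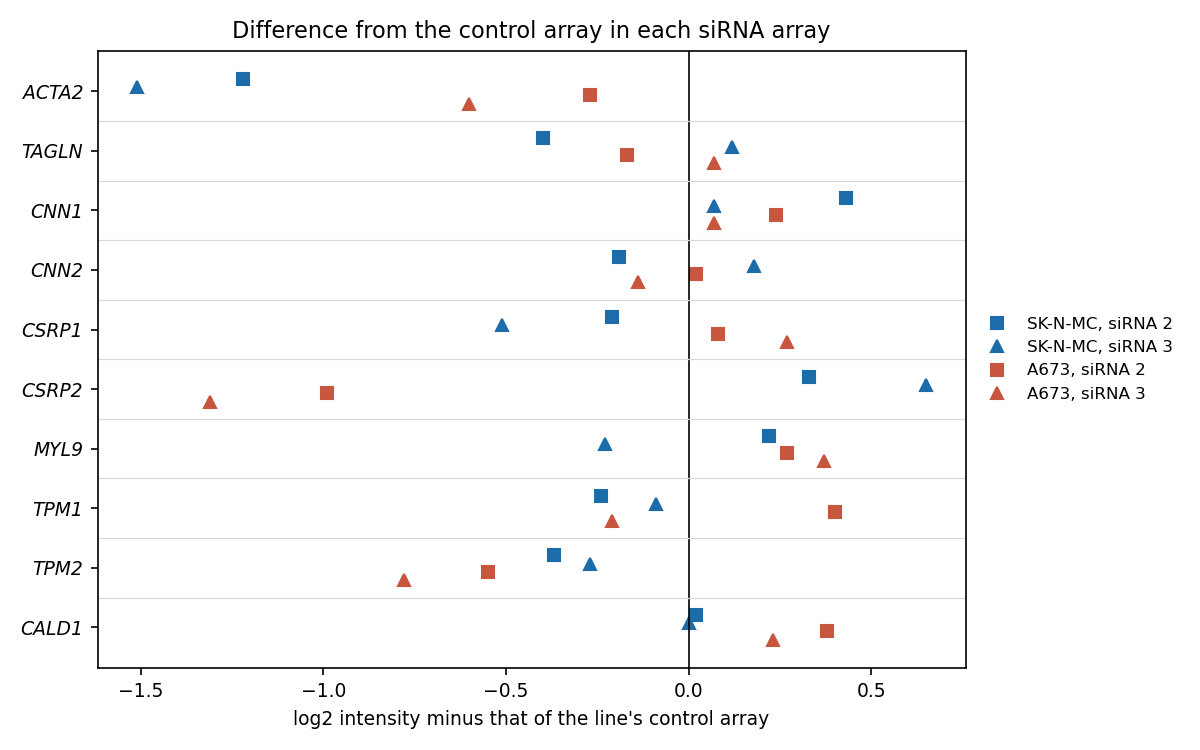
Log2 intensity of each siRNA array minus that of its line's control array (x axis) for the 10 contractile genes, with squares for siRNA 2 and triangles for siRNA 3, SK-N-MC in blue and A673 in red. ACTA2 and TPM2 lie left of 0 in all 4 arrays, and CSRP2 lies right of 0 in SK-N-MC (0.33 and 0.65) and left of 0 in A673 (-0.99 and -1.31).

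In number, ACTA2 and TPM2 were lower than the control in all 4 siRNA arrays, which held for 11.2% of all genes, and CNN1 and CALD1 were higher in all 4, which held for 10.6%. In SK-N-MC the margin of CALD1 was very small, at 101.2% and 100.3% of its control. ACTA2 was at least 1.5-fold lower in both SK-N-MC siRNA arrays, as were 1.05% of all genes, and none of the 10 was that much higher there, against 0.288%. CSRP2 was at least 1.5-fold lower in both A673 siRNA arrays, as were 0.342% of all genes, and none was that much higher, against 0.233%. CSRP2 was 1 gene of the 10 that was above the control in both SK-N-MC arrays and below it in both A673 arrays, as were 10.1% of all genes. CSRP1 was 1 of the 10 with the opposite pattern, as were 9.88%. The set was chosen on these contrasts, and nothing is read from these counts. As a whole the set did not move one way: its median difference was -0.063 across lines, -0.073 in SK-N-MC and 0.024 in A673, beside -0.005, -0.004 and -0.003 over all genes.

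Over all 18417 genes limma called 0 across lines (852 at an unadjusted p under 0.05), 0 within A673 (617) and 0 for the difference of the responses (711), which puts the called share at 0 in either direction. Within SK-N-MC it called 1 gene lower, or 0.00543%, and 0 higher, with 943 at an unadjusted p under 0.05. That gene was XAF1, which is interferon-inducible and no contractile gene (log2 difference -2.59, SE 0.18, adjusted p = 0.0466). XAF1 was lower in both SK-N-MC siRNA arrays, and its call was lost without the A673 siRNA 2 or the A673 siRNA 3 array.

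The other genes of the pathway were taken from lists. These lists too were chosen with earlier results of these data known, so their counts are not independent evidence. Silencing gave 0 calls in the lists of smooth muscle genes (20 measured), general actin and myosin genes (28), regulators of SRF and of actin assembly (28) and SRF, YAP or TGF-beta responsive genes (21), across lines and within each line. The general actin and myosin genes had a median difference of -0.085 across lines, beside -0.005 over all genes. Of the 28 genes 24 were below 0, beside 9485 of all 18417. Lower in all 4 siRNA arrays were 4 of the 28, beside 11.2% of all genes. LPP, a LIM protein of focal adhesions, differed by -0.31 (SE 0.14) and TMOD3, which caps thin filaments, by -0.13 (SE 0.11). For the regulators the median was -0.034, with ELK4, a ternary complex factor that partners SRF, at -0.31 (SE 0.13) and PPP1R12A, the myosin phosphatase subunit, at 0.20 (SE 0.11). EGR1, a classic SRF target, was at 4.07, 3.48 and 3.68 in SK-N-MC and at 5.10, 4.72 and 4.52 in A673. It was below its control in 4 of 4 siRNA arrays (-0.49, SE 0.12). The list of EGR1 had a median of -0.073 across lines, with 12 of 21 genes below 0 and 9 above. AJUBA, a LIM protein of the same list, was at 0.18 (SE 0.11). Of the smooth muscle genes, CNN3, the acidic calponin, differed by -0.17 (SE 0.11) and SMTN, smoothelin, by 0.27 (SE 0.16). The list genes named here were picked for having 1 sign in all 4 siRNA arrays, so that sign is no finding. These genes had an adjusted p of 0.989 in limma across lines, and none of them passed the test.

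Interferon-stimulated genes were read as a list outside the pathway. The 19 measured interferon-stimulated genes had median differences of -2.71 with siRNA 2 and -1.36 with siRNA 3 in SK-N-MC, and of -0.14 and -0.07 in A673. Their median level was 6.73 in the SK-N-MC control but 2.11 in the A673 control, where the array median was 2.617. A decrease in A673 thus had little room to show, and the lines cannot be compared evenly on this list. Within SK-N-MC all 19 were below 0, of which 1, XAF1, was called, and within A673 14 of 19 were below 0 with 0 called. Of all 18417 genes, 9371 were below 0 within SK-N-MC and 9308 within A673. Over the same 4 arrays ACTA2 differed by -1.22, -1.51, -0.27 and -0.60, and the median of the 28 general actin and myosin genes by -0.14, -0.08, 0.01 and -0.04. ACTA2 and the interferon-stimulated genes both had their larger differences in SK-N-MC, while siRNA 3 gave the lower ACTA2 level and siRNA 2 the lower interferon median. The part of the interferon-stimulated genes in the ACTA2 result was not tested.

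**Figure D3:**
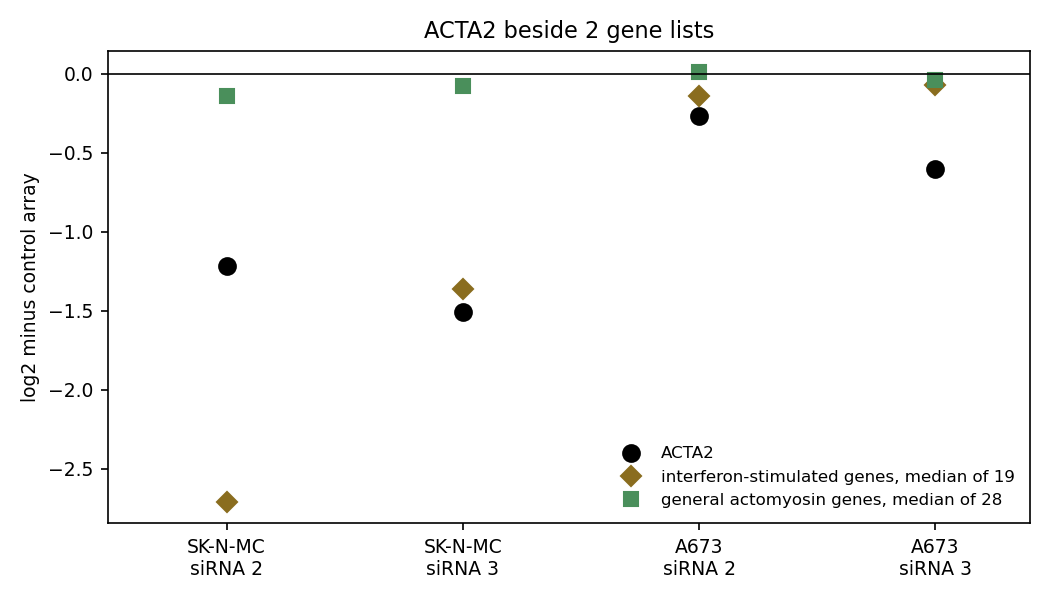
Log2 difference from the control array for ACTA2 (circles), the median of 19 interferon-stimulated genes (diamonds) and the median of 28 general actin and myosin genes (squares) in the 4 siRNA arrays. In SK-N-MC ACTA2 stands at -1.22 and -1.51 and the general actin and myosin median at -0.14 and -0.08.

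The genes most like ACTA2 were ranked by the root mean square distance between their 4 log2 differences and those of ACTA2, among 2391 genes whose mean log2 reached 6 or more. The nearest was TAPBP (0.383), which helps load peptides on class I molecules, with differences of -1.07, -0.82, -0.17 and -0.31. TRIM25 (0.459), ADIPOR1 (0.467), RAP1B (0.515) and WSB2 (0.536) followed. TRIM25 was below its control in both SK-N-MC arrays, by as much as -1.35, and on both sides of it in A673, at -0.07 and 0.14. For CSRP2 the nearest were the histone gene H2AC21 (0.572), the small nucleolar RNA SNORA21 (0.598), the respiratory chain gene NDUFV2 (0.632), and H4C14 and H4C15 (0.640 each). Those histone genes have near-identical copies and are uncertain. H2AC21 stood at 0.17 and 0.43 in SK-N-MC and at -0.39 and -0.37 in A673. The nearest of these 2391 genes thus had smaller differences than CSRP2. ACTA2 and CSRP2 themselves averaged below the cutoff of 6, and other genes below it were not compared. Likeness over 4 arrays that share 2 controls is a description.

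The next comparison is between the cell lines, over all 3 arrays of each. CSRP1 had the widest gap of the set, 8.15 ± 0.14 (SD, n = 3) in A673 and 3.07 ± 0.25 (SD, n = 3) in SK-N-MC. The difference of 5.08 (SE 0.15) is a 33.9-fold higher intensity in A673. The SK-N-MC intensities of CSRP1 were near the array median, and its difference came to 3.62 on log2(intensity + 16) and 4.15 with a floor of 16. For CALD1 the means were 5.89 ± 0.19 and 3.94 ± 0.01 (SD, n = 3 each), a difference of 1.95 (SE 0.12) or 3.86-fold. The SK-N-MC intensities of CALD1 were just under 16, and its difference came to 1.27 on log2(intensity + 16). The arrays of the lines did not overlap for either gene. TPM2 was the largest difference in the other direction, at 4.80 ± 0.40 in A673 and 6.21 ± 0.19 in SK-N-MC (SD, n = 3 each), a difference of -1.41 (SE 0.13). All 3 A673 arrays of TPM2 lay below all 3 of SK-N-MC.

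ACTA2 differed between lines by 0.99 (SE 0.20), with means of 6.03 ± 0.30 for A673 and 5.04 ± 0.80 for SK-N-MC (SD, n = 3 each). Its groups overlapped, since the SK-N-MC control (5.95) lay above the A673 siRNA 3 array (5.72), and the control arrays alone differed by less, at 6.31 and 5.95. Without either control array the value was 1.30. TAGLN was higher in A673 by 0.64 (SE 0.15) and CNN2 lower by 0.44 on the log2 scale (SE 0.13), both without overlap. TAGLN was dim in both lines, and its difference came to 0.16 on log2(intensity + 16). CNN1 (-0.01, SE 0.13), MYL9 (0.08, SE 0.15), TPM1 (0.17, SE 0.17) and CSRP2 (-0.24, SE 0.30) overlapped between lines and differed by about their SE or less. For CSRP2 this value joins opposite gaps. Its control was higher in A673 (5.10 against 4.25), and its siRNA arrays were lower there (4.11 and 3.80 against 4.59 and 4.90).

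**Figure D4:**
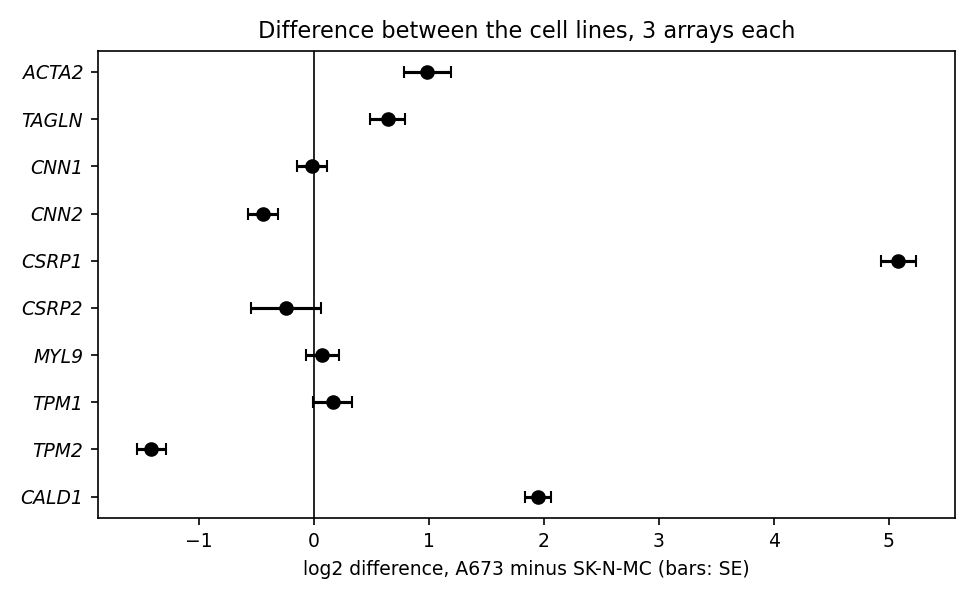
Log2 difference between the lines, A673 minus SK-N-MC, for the 10 contractile genes, with points for the limma estimate over 3 arrays each and bars for 1 SE. CSRP1 (5.08) and CALD1 (1.95) lie far to the right and TPM2 (-1.41) to the left, and the points of CNN1, MYL9, TPM1 and CSRP2 lie near 0.

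Without overlap, 3 of the 10 were higher in A673 (TAGLN, CSRP1 and CALD1) and 2 lower (CNN2 and TPM2), beside 19.4% and 18.5% of all genes. The difference between the lines entered the choice of the set, so nothing is read from these shares.

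Between the lines limma called 13.5% of all genes higher in A673 and 11.4% lower, with 6275 genes at an unadjusted p under 0.05. The list counts that follow are descriptions to be set beside these shares, and no test compared a list with all genes. Of 28 general actin and myosin genes, 17 were higher in A673 and 2 lower, with a median difference of 0.546 beside -0.017 over all genes and 0.120 for the 10 contractile genes. This list was bright, with median levels of 5.88 to 6.95 in the arrays, while the shares over all genes also count dim genes. PFN2, a profilin that supplies actin monomers, was higher by 1.58 (SE 0.18, adjusted p = 0.000359 in limma). TMOD3 was higher by 1.44 (SE 0.10, adjusted p = 3.25e-05 in limma) and LPP by 1.43 (SE 0.13, adjusted p = 0.000127 in limma). PDLIM7, a PDZ and LIM protein, stood at -0.69 (SE 0.16) and LASP1, a LIM and SH3 protein, at -0.48 (SE 0.12). The calls of PDLIM7 were lost without either control, and that of LASP1 without any 1 array other than SK-N-MC siRNA 2 or A673 siRNA 2. PFN2, TMOD3 and LPP passed with any 1 array left out.

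Of the 20 smooth muscle genes 1 was called higher in A673 and 1 lower, beside 13.5% and 11.4% of all genes. CNN3 was at 6.79, 6.54 and 6.60 in SK-N-MC and at 7.62, 7.49 and 7.50 in A673 (0.89, SE 0.10, adjusted p = 0.000391 in limma). ACTG2, the enteric smooth muscle actin, was at 3.34, 3.20 and 3.50 in SK-N-MC and at 2.47, 2.54 and 2.68 in A673 (-0.79, SE 0.12, adjusted p = 0.00191 in limma). The gamma smooth muscle actin was thus lower in A673, where ACTA2, the alpha form, had the higher mean. CNN3 and ACTG2 passed with any 1 array left out. ACTG2 was dim in both lines, however, and its call was lost with a floor of 16.

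Among the regulators of SRF and of actin assembly 8 of 28 were called higher in A673 and 3 lower, beside 13.5% and 11.4% of all genes. YAP1, a Hippo pathway coactivator, was at 4.42, 4.52 and 4.16 in SK-N-MC and at 7.21, 6.66 and 7.22 in A673 (2.66, SE 0.17, adjusted p = 1.86e-05 in limma). ARHGEF12, an exchange factor that activates RhoA, was higher by 2.59 (SE 0.13) and ELK3, a ternary complex factor, by 1.17 (SE 0.20). RHOA itself was lower by 0.82 on the log2 scale: its difference was -0.82 (SE 0.10), and those of ELK1 and SRF were -0.72 (SE 0.15) and -0.39 (SE 0.10, adjusted p = 0.0244 in limma). The SRF call was lost without any 1 of the 6 arrays, while the other 5 named regulators passed with any 1 left out. MYOCD, the smooth muscle coactivator, was near the bottom of the range in both lines, as given above.

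Of 21 genes known to respond to SRF with MRTF, to YAP or to TGF-beta, 10 were called higher in A673 and 1 lower, beside the same shares. TGFBI, a matrix protein induced by TGF-beta, was at 2.51, 2.78 and 2.45 in SK-N-MC and at 6.83, 5.64 and 6.74 in A673 (3.82, SE 0.28, adjusted p = 3.77e-05 in limma). AMOTL2 was higher by 1.90 (SE 0.15) and CCN1 by 1.53 (SE 0.30), both targets of YAP, and the call of CCN1 was lost without either control. JUNB, an immediate early gene, was lower, at -1.10 (SE 0.13). Fibroblast and pericyte markers went both ways. THY1 stood at 4.50 (SE 0.14), DCN at -2.03 (SE 0.25) and FAP at -1.75 (SE 0.21), with 2 of 17 markers called higher in A673 and 4 lower, beside 13.5% and 11.4% of all genes. Their part in the differences of the contractile genes was not tested.

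The comparison of the siRNAs was not used to choose the set, so here the 10 genes were tested, over all 18417 genes. Called genes were 0 of 10, and 0 of all genes in either direction, while 1229 genes had an unadjusted p under 0.05 in limma. TAGLN had the smallest p of the set: it was lower with siRNA 2 in both lines, with gaps of -0.52 for SK-N-MC and -0.24 for A673 (-0.38, SE 0.14, adjusted p = 0.723 in limma, unadjusted 0.0293). It was the 1 gene of the 10 below an unadjusted p of 0.05 in that direction, beside 3.62% of all genes, and 0 of 10 passed as higher, beside 3.06%. TAGLN was dim in every array.

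ACTA2 was higher with siRNA 2 than with siRNA 3, by 0.28 in SK-N-MC and by 0.33 in A673 (0.31, SE 0.23, adjusted p = 0.886 in limma). CNN1 was higher by 0.35 and 0.17 (0.26, SE 0.14, adjusted p = 0.811 in limma). With CALD1, at 0.01 and 0.15, these were 3 of 10 genes with siRNA 2 above siRNA 3 in both lines, beside 24.6% of all genes. TAGLN was 1 of 10 with siRNA 2 below in both lines, beside 26.3%. The other 6 genes had gaps of opposite sign in the lines. For CSRP2 these were -0.32 and 0.32, which gave a difference of 0.00 (SE 0.38, adjusted p = 1 in limma). In each line siRNA 3 gave the larger departure of CSRP2 from the control. The median difference of the 10 genes was 0.074, beside -0.006 over all genes. STEAP1 itself differed by -0.31 (SE 0.26, adjusted p = 0.899 in limma) between the siRNAs. A p that misses the threshold does not show that the siRNAs act alike.

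**Figure D5:**
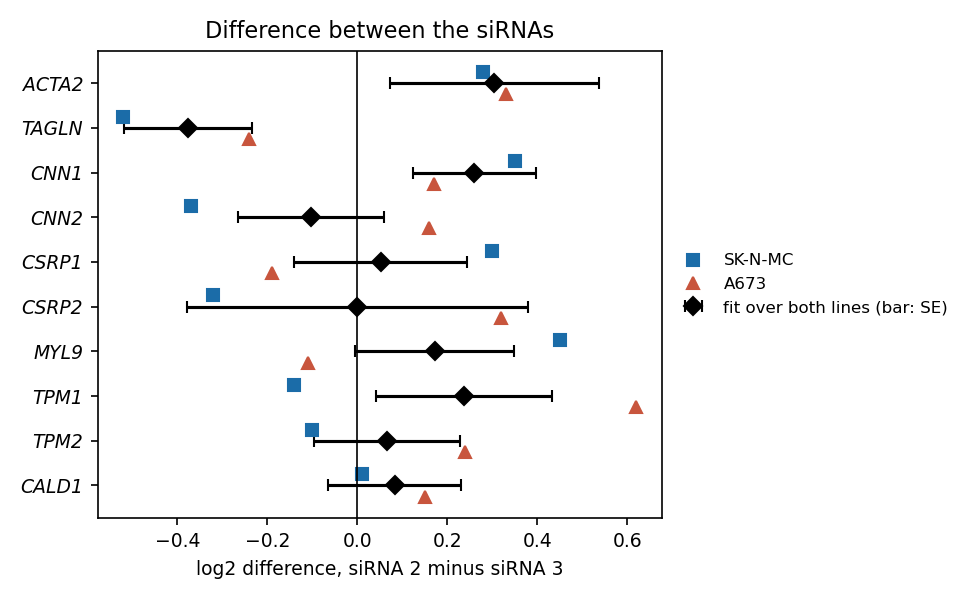
Log2 difference between the siRNAs, siRNA 2 minus siRNA 3, for the 10 contractile genes, with blue squares for SK-N-MC, red triangles for A673 and black diamonds with 1 SE bars for the limma fit over both lines. TAGLN lies left of 0 in both lines (-0.52 and -0.24), and CSRP2 lies left of 0 for SK-N-MC (-0.32) and right of 0 for A673 (0.32).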

How the data were processed

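RNA of 6 samples was read on Affymetrix Human Gene ST arrays. The authors deposited linear intensities. They were made by RMA with Affymetrix Expression Console 1.1 according to the submitters' processing notes, and how the RMA values became linear again is not stated there. RMA fits probes jointly over arrays and gives no detection calls, so dim values have no stated floor. Log2 of each intensity was taken, with no further normalization. Of 33297 probe sets, 21214 are in the platform annotation and 19460 carry 1 symbol. Of the latter, 19429 were matched to a RefSeq gene (GRCh38.p14), whose symbol was then used. The brightest probe set per gene left 18417 genes.

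Two-sided limma tests (version 3.58.1, R 4.3.3, lmFit then eBayes) were adjusted by Benjamini-Hochberg over all genes, with a threshold of 0.05. Silencing across lines and the line difference came from a fit with line and silencing terms (3 residual degrees of freedom). Responses within lines and their difference came from 4 group means, and the siRNA difference from a line term and a term per siRNA (2 residual degrees of freedom each). The fits were tested on simulated data. The contractile genes and the lists were chosen with earlier results of these data known. From each list the text takes from called genes, up to 3 per direction beyond 5 calls, or else 2 genes of 1 sign in all 4 siRNA arrays. Alternatives were quantile normalization, median centring, log2(intensity + 16), a floor of 16, a mean log2 of at least 4, an intensity trend, the mean of probe sets, a replicate block by siRNA number and each array left out.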

Additional observations from a re-analysis of the deposited data

Results flagged for a closer look

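CSRP1 and CSRP2 differed from their control array in opposite directions in the cell lines. For CSRP2 both SK-N-MC siRNA arrays were above the control and both A673 siRNA arrays below it, and the A673 response less the SK-N-MC response came to -1.64. This pattern of signs held for 10.1% of all genes. For CSRP1 both SK-N-MC siRNA arrays were below the control and both A673 siRNA arrays above it, by as little as 0.08, and the difference of the responses was 0.53. That pattern held for 9.88% of all genes, and the SK-N-MC intensities of CSRP1 were near the array median. Neither difference was tested, because the difference in response entered the choice of the set.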

How the results depend on the processing

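No alternative called a contractile gene between the siRNAs. The sign of that difference turned under some setting for 7 of the 10 genes. With 1 array left out at a time it ranged from -0.647 to 0.646 for CSRP2, -0.266 to 0.369 for CSRP1, -0.315 to 0.111 for CNN2, -0.117 to 0.461 for MYL9, -0.113 to 0.587 for TPM1, -0.149 to 0.281 for TPM2 and -0.043 to 0.209 for CALD1. CSRP1 turned to -0.043 on log2(intensity + 16) and -0.097 with a floor of 16, and CSRP2 to 0.025 after a second quantile normalization and 0.004 after median centring. The sign of ACTA2, TAGLN and CNN1 was kept with any 1 array left out. TAGLN and CNN1 lay below an intensity of 16 in every array, so the floor left no difference for them. Genes called within SK-N-MC, 1 in the fit as reported, numbered 4 after quantile normalization, 0 on log2(intensity + 16), 115 with the floor and 5 with an intensity trend, and from 0 to 61 with 1 array left out: 8 without SK-N-MC siRNA 2, 61 without SK-N-MC siRNA 3 and 0 without either A673 siRNA array. Across lines, leaving out 1 array gave 0 to 1 calls, the 1 without the A673 control. Within A673 the floor gave 79 calls. For the difference of the responses it gave 181, and leaving out 1 array gave 0 to 26, the 26 without SK-N-MC siRNA 3. Between lines the floor gave 974 calls (644 higher and 330 lower), against 4575 (2479 and 2096). Values tied at the floor have no spread, and intensities below 16 are then not compared. Where a left-out array leaves 1 siRNA array in a line, that array is assumed to vary like the other line's pair. With siRNA number as a replicate block, 14 genes were called within SK-N-MC and 0 across lines, within A673 and for the responses. The numbers name the same reagent in both lines and no shared culture, and the deviations of same-numbered arrays correlated across 18417 genes at 0.0663. No paired analysis was possible for the siRNA comparison because the block is the term tested. Of single-gene values under alternatives, 1330 kept their direction and call or moved by less than the spread. A further 64 kept their direction and lost their call, 70 moved by more and 13 were counted as reversed. The 1330 and the 70 also hold values that changed sign, so 13 is not the number of all sign changes. Across lines, CNN2 went from -0.035 to 0.04 without SK-N-MC siRNA 2 and was counted among the 1330. CSRP1 went from -0.092 to 0.176 without the SK-N-MC control and was counted among the 70.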
